A study of Mus musculus with 4 samples.

Results

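Type I interferon-stimulated genes are the genes that cells switch on when alpha or beta interferon binds its receptor. The 33 studied here were taken by symbol from a list of core antiviral and regulatory members, out of 46078 gene rows in the count table, and all 33 were found and passed the filter on low counts. They encode 2 interferon signalling factors, 3 proteins of the ISG15 conjugation system, 5 IFIT proteins, 6 members of the oligoadenylate synthetase (OAS) family, 2 Mx GTPases, 5 nucleotide or RNA enzymes, 4 membrane or trafficking proteins and 6 other nuclear and regulatory proteins.

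Alpha and beta interferons bind a receptor built from IFNAR1 and IFNAR2, whose kinases JAK1 and TYK2 phosphorylate STAT2. STAT2 and IRF9 are subunits of the complex ISGF3, which binds an interferon-stimulated response element (ISRE) in the promoters of such genes. Dendritic cells (DCs) hold a tonic level of this programme, and in tumour immunity interferon sensing by cross-presenting DCs is known to help prime CD8 T cells.

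The study compared CD103-positive DCs of control mice with those of mice in which CD11c-driven Cre can delete Il33, the gene of an IL-1 family cytokine. The Ctrl group carried the CD11c-cre transgene alone and the Il33flx group was CD11c-cre-IL33flx/flx, with 2 libraries each. Every mouse, controls included, had been injected with EL4-Flt3 tumour cells 10 days earlier, and EL4 is a mouse T cell lymphoma line. Cells were taken from spleen and mesenteric lymph node together and sorted as CD45+, CD64-, CD11b+, MHCII+ and CD103+, so a library mixes both organs. Cre from the CD11c promoter acts in DCs and in some macrophages and other cells that express CD11c. The labels give neither strain, age nor sex, and do not say whether a library came from 1 animal or a pool. P-values therefore rest on differences between libraries that may be technical in part.

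Values of the 4 libraries are given throughout in the order Ctrl 1, Ctrl 2, Il33flx 1 and Il33flx 2. Libraries held 67707682 to 81217828 gene counts. Il33 itself (ENSMUSG00000024810, chromosome 19, 29925114 to 29960718 on GRCm38) was read 4 and 8 times in the Ctrl pair and 4 and 0 times in the Il33flx pair, too few to check the genotype labels. The type 1 DC markers Xcr1 (506 to 841 CPM, counts relative to the library's total) and Clec9a (99.8 to 120 CPM) were high in each library. All 8 type 1 DC markers summed to 7102 to 9256 CPM, and 6 type 2 DC markers to 526 to 596 CPM. Such sums of different genes do not give shares of cells. Of the gate's genes, Itgae (CD103) lay at 56.8 to 116 CPM and Itgam (CD11b) at 97.8 to 128 CPM, and Fcgr1 (the excluded CD64) at 3.66 to 5.50 CPM.

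Promoter sequence shows what many of these genes share. The core of the ISRE was searched as GAAA, any 2 bases and GAAA again, on both strands, overlaps included, of the 250 bases before each start site of the RefSeq promoter table (GRCm38.p6). It was present for 14 of the 26 listed members that the table held, or 53.9%, against 936 of 27025 genes, or 3.46%, in the whole table. Among further interferon-stimulated genes outside the 33, it was present for 21 of 63, or 33.3%. A match of these letters is a description and not a measured binding site, and a window without them says nothing about the factor. The promoters below are the 150 bases before the start of 5 members, all on the minus strand. They are printed 5′ to 3′ along the gene, with each core in capitals. All 5 hold the core, whereas 12 of the 26 members, Irf7 and Ifitm3 among them, did not. Start sites are those of RefSeq and can differ from the gene ends given with the values.
Isg15, chr4:156200819-156200968: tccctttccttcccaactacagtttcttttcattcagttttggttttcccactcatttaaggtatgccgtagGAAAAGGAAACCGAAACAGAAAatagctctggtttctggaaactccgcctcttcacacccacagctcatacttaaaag
Oas1a, chr5:120907526-120907675: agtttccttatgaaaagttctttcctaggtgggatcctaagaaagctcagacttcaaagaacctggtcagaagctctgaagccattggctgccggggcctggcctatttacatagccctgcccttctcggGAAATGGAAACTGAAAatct
Oas1g, chr5:120887614-120887763: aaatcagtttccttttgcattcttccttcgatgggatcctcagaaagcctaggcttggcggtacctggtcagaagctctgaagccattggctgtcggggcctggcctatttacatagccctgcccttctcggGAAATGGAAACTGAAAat
Phf11b, chr14:59341331-59341480: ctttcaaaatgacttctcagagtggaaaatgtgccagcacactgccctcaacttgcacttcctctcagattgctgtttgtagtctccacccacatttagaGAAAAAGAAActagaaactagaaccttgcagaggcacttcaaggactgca
Rsad2, chr12:26456453-26456602: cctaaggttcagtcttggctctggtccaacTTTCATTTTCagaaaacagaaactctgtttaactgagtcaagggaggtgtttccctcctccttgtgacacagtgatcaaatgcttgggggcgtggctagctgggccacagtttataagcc
Isg15 held 3 overlapping cores, the first base of each 78, 72 and 66 bases before the start. Oas1a and Oas1g, neighbouring genes that are near copies of each other, both held the same pair of overlapping cores, beginning 20 and 14 bases before the start in Oas1a and 18 and 12 in Oas1g. Phf11b held 1 core, 50 bases before the start. In Rsad2 the core beginning 120 bases before the start lies in the reverse orientation, so its reverse complement is printed.

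None of the 33 genes differed between the genotypes by more than the spread between libraries allows to call. In edgeR's quasi-likelihood test, 0 of 33 passed an adjusted p of 0.05 in either direction, where 0.00667% of the 14995 genes tested were called higher and 0% lower. At an unadjusted p under 0.05 stood 0 of the 33 in edgeR, against 3.26% of all genes. DESeq2 and limma-voom also called 0 of the 33, where they called 53 and 0 of all 14995 genes. The smallest unadjusted p was 0.158, for Mx1 (adjusted p = 0.995, edgeR). The authors' deposited table likewise listed all 33 with 0 called at an adjusted p below 0.05, 0 at an unadjusted p below 0.05 and log2 fold changes from -0.40 to 0.70.

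Fold changes of Il33flx over Ctrl ran from -0.38 (Ifi27l2a) to 0.72 (Rtp4) on the log2 scale. They were positive for 25 members and negative for 8, with a median of 0.09, where 51.8% of all genes were positive and the median over all genes was 0.01. That split rested on single libraries. Without Il33flx 1 the median was -0.18, with 10 members positive and 23 negative, and without Il33flx 2 it was 0.32, with 31 positive and 2 negative. For 24 of the 33 genes the 95% interval lay within 2-fold either way, against 52.8% of all genes tested, so larger changes lie outside those intervals. The intervals of the other 9 include a 2-fold difference in at least 1 direction.

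**Figure D1:**
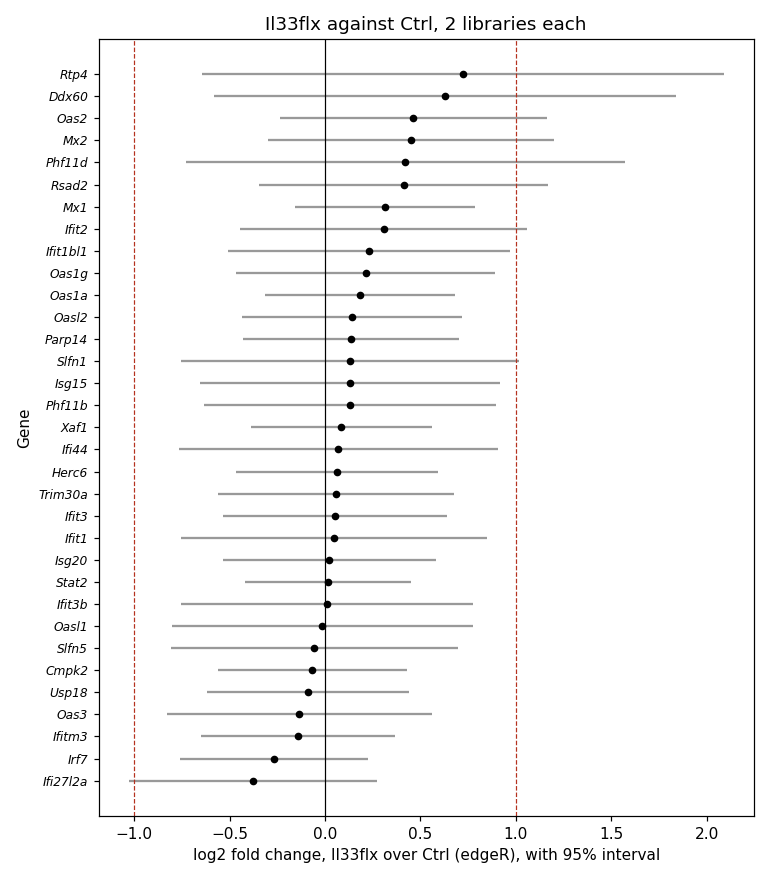
Log2 fold change of Il33flx over Ctrl for each of the 33 genes (points) with the 95% interval from edgeR (grey lines), ordered by size, with dashed lines at a 2-fold change either way. Every interval crosses 0, and the widest belong to Rtp4, Ddx60 and Phf11d, the genes whose Ctrl libraries differ most.

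Neither of the signalling factors was called. Irf7, the interferon regulatory factor that amplifies type I interferon production (ENSMUSG00000025498, chromosome 7, 141262706 to 141266481), read 748 and 675 CPM in the Ctrl pair and 678 and 504 CPM in the Il33flx pair. The 2 groups overlapped, since Il33flx 1 lay just above Ctrl 2, and only Il33flx 2 stood low. On the log2 scale the fold change was -0.27 ± 0.21 SE (unadjusted p = 0.235 and adjusted p = 0.995, edgeR), and it was -0.50 without Il33flx 1 and -0.04 without Il33flx 2. Stat2, the ISGF3 subunit, read 137, 137, 152 and 125 CPM in the same order, with both Ctrl libraries between the Il33flx libraries. Reads per kilobase of exon placed Irf7 second among the 33 genes, at a mean of 172 CPM per kilobase over the 4 libraries.

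ISG15 is a ubiquitin-like protein that is attached to other proteins, HERC6 is the mouse ligase that attaches it, and USP18 removes it and also blocks the receptor. Isg15 (chromosome 4, 156199424 to 156200818) read 17.2 and 19.7 CPM in the Ctrl pair and 26.4 and 14.0 CPM in the Il33flx pair. Its extremes were both Il33flx libraries, 1.89-fold apart, with both Ctrl libraries between them. Its log2 fold change was 0.13 ± 0.33 (SE, adjusted p = 0.995, edgeR), with an interval of -0.66 to 0.92. Usp18 (ENSMUSG00000030107, chromosome 6, 121245906 to 121270917) read 229, 181, 220 and 166 CPM, so that the 2 groups interleaved. The log2 fold change of Usp18 was -0.09 ± 0.22 (SE, adjusted p = 0.995, edgeR). Herc6 read 41.3, 42.9, 50.6 and 37.2 CPM, again with both Ctrl libraries inside the Il33flx range.

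The IFIT proteins bind foreign RNA and block its translation, and their genes lie side by side on chromosome 19. Ifit2 (ENSMUSG00000045932, 34550694 to 34576419) read 55.7 and 71.7 CPM in the Ctrl pair and 102 and 55.7 CPM in the Il33flx pair. Only Il33flx 1 stood high, and Il33flx 2 matched Ctrl 1 to 3 digits. This gave a log2 fold change of 0.31 ± 0.31 SE (unadjusted p = 0.361 and adjusted p = 0.995, edgeR), and it was -0.19 without Il33flx 1. Ifit1 read 23.9, 24.95, 33.6 and 17.0 CPM, where the Ctrl libraries lay close together and the Il33flx libraries 1.98-fold apart, the widest such gap among the 33. Ifit3 read 25.1, 24.7, 30.6 and 21.1 CPM and Ifit3b 7.15, 8.19, 9.58 and 5.87 CPM. These 2 genes are near copies, and 51.2% of the 50-base stretches of Ifit3 transcripts also occur in another gene, so their split is uncertain. Ifit1bl1 read 11.97, 16.0, 20.3 and 12.6 CPM. All 5 IFIT genes were highest in Il33flx 1.

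The OAS enzymes make short oligoadenylates that activate RNase L in response to double-stranded RNA, and OASL1 and OASL2 are related proteins. Oas1a (ENSMUSG00000052776, chromosome 5, 120896256 to 120907521), whose promoter is printed above, read 59.2 and 49.1 CPM in the Ctrl pair and 67.4 and 55.6 CPM in the Il33flx pair. Its near copy Oas1g read 8.43, 5.97, 8.68 and 8.02 CPM. In both genes Ctrl 2 was the lowest and Il33flx 1 the highest library, and Ctrl 1 lay between the Il33flx libraries. The log2 fold change of Oas1a was 0.18 ± 0.21 (SE, adjusted p = 0.995, edgeR), and 57.6% of its 50-base stretches recur in another gene, mostly Oas1g. Oas2 (ENSMUSG00000032690, chromosome 5, 120730333 to 120749853) had the smallest p of the family and read 10.1, 11.6, 18.3 and 11.6 CPM. Its log2 fold change was 0.46 ± 0.29 SE (unadjusted p = 0.160 and adjusted p = 0.995, edgeR), carried by Il33flx 1, while Il33flx 2 equalled Ctrl 2.

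Oas3, the longest family member, went the other way in the mean, with 1 low Il33flx library. It read 98.0 and 99.7 CPM in the Ctrl pair and 116 and 64.2 CPM in the Il33flx pair, for a log2 fold change of -0.14 ± 0.29 (SE, adjusted p = 0.995, edgeR). Without Il33flx 1 the change was -0.63 and without Il33flx 2 it was 0.26. Oasl1, a repressor of Irf7 translation, read 59.2, 37.5, 59.9 and 35.9 CPM, so that 1 library of each group stood high and 1 low. Oasl2 read 69.7, 78.2, 97.8 and 65.5 CPM. All 6 OAS genes were highest in Il33flx 1.

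The Mx genes were the only members whose groups did not overlap. The Mx GTPases block the replication of viruses by trapping their components, and many inbred mouse strains are known to carry defective Mx genes, while the strain used here was not given. Mx1 (ENSMUSG00000000386, chromosome 16, 97447035 to 97462907) read 21.9 and 22.4 CPM in the Ctrl pair and 26.7 and 28.3 CPM in the Il33flx pair. Mean levels were 22.1 ± 0.39 and 27.5 ± 1.15 CPM (SD, n = 2 libraries). The log2 fold change was 0.31 ± 0.20 SE (unadjusted p = 0.158 and adjusted p = 0.995, edgeR), with an interval of -0.16 to 0.79. Mx2, which the annotation classes as a polymorphic pseudogene, read 3.21, 3.18, 4.90 and 3.83 CPM (log2 fold change 0.45 ± 0.31 SE, adjusted p = 0.995, edgeR). Groups lay apart with Il33flx higher for 2 of the 33 members and lower for 0, whereas 15.4% of all genes tested lay apart higher and 14.9% lower. Per kilobase of exon the mean levels were 6.56 CPM for Mx1 and 1.05 CPM for Mx2. The count of members apart is below the background share.

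Among the nucleotide and RNA enzymes, RSAD2 (viperin) makes a chain-terminating nucleotide that stops viral polymerases and CMPK2 is its neighbour in the genome. Rsad2 (ENSMUSG00000020641, chromosome 12, 26442746 to 26456452) read 18.4 and 28.6 CPM in the Ctrl pair and 38.0 and 24.5 CPM in the Il33flx pair. The groups overlapped, since Ctrl 2 lay above Il33flx 2. This gave a log2 fold change of 0.41 ± 0.32 SE (unadjusted p = 0.234 and adjusted p = 0.995, edgeR). It was 0.06 without Il33flx 1 and 0.14 without Ctrl 1, against 0.72 without Il33flx 2 and 0.76 without Ctrl 2. Cmpk2 read 46.2, 50.3, 51.4 and 40.7 CPM, a narrower spread than that of Rsad2. Isg20 (ENSMUSG00000039236, chromosome 7, 78913424 to 78920396), an exonuclease for single-stranded RNA, read 28.6, 26.4, 32.3 and 23.5 CPM, with both Ctrl libraries inside the Il33flx range. Its log2 fold change was 0.02 ± 0.23 (SE, adjusted p = 0.9999, edgeR). Parp14, an ADP-ribosyltransferase, read 36.0, 49.99, 51.6 and 42.9 CPM.

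The 2 largest positive fold changes belonged to genes with 1 low Ctrl library. Ddx60, a helicase of RNA sensing, read 2.88 and 7.90 CPM in the Ctrl pair and 10.2 and 6.51 CPM in the Il33flx pair. Rtp4, a chaperone of membrane receptors that is induced by interferon, read 6.02, 21.0, 28.1 and 16.4 CPM. In both genes Ctrl 2 lay between the Il33flx libraries, and the Ctrl libraries differed 2.74-fold and 3.48-fold. The log2 fold changes were 0.63 ± 0.50 for Ddx60 and 0.72 ± 0.57 for Rtp4 (SE, adjusted p = 0.995 each, edgeR). Without Ctrl 1 they were 0.09 and 0.10, and without Ctrl 2 they were 1.53 and 1.88.

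The membrane proteins held the highest level and the most negative fold change. Ifitm3, which hinders viral fusion in endosomes (ENSMUSG00000025492, chromosome 7, 141009586 to 141010770), was first of the 33 per kilobase of exon, at a mean of 388 CPM per kilobase. It read 260 and 292 CPM in the Ctrl pair and 290 and 210 CPM in the Il33flx pair, so only Il33flx 2 stood apart (log2 fold change -0.14 ± 0.21 SE, adjusted p = 0.995, edgeR). Ifi27l2a (ENSMUSG00000079017, chromosome 12, 103442167 to 103443680), a small hydrophobic membrane protein gene, read 71.7, 102, 79.6 and 53.9 CPM. Its log2 fold change was -0.38 ± 0.27 SE (unadjusted p = 0.209 and adjusted p = 0.995, edgeR), and Il33flx 1 lay above Ctrl 1. Leaving out 1 library gave -0.69 without Il33flx 1, -0.60 without Ctrl 1, -0.11 without Ctrl 2 and -0.10 without Il33flx 2. Ifi44 read 19.4, 30.7, 33.4 and 19.1 CPM, with 1 high and 1 low library in each group.

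Phf11b (ENSMUSG00000091649, chromosome 14, 59320964 to 59341351), a PHD-finger protein gene, read 98.4 and 196 CPM in the Ctrl pair and 157 and 165 CPM in the Il33flx pair. Its neighbour Phf11d (ENSMUSG00000068245, 59347407 to 59365470) read 13.7, 42.1, 37.7 and 36.9 CPM. Both genes were low in Ctrl 1 alone, highest in Ctrl 2, and nearly equal in the Il33flx libraries. The log2 fold change for Il33flx over Ctrl was 0.13 ± 0.32 for Phf11b and 0.42 ± 0.48 for Phf11d (SE, adjusted p = 0.995 each, edgeR), and without Ctrl 1 these were -0.27 and -0.17. Of the 50-base stretches of Phf11b, 47.1% recur in another gene, chiefly Phf11a, so its count is uncertain.

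Slfn1, of the Schlafen growth regulators, read 6.25, 12.3, 11.4 and 8.99 CPM, and its relative Slfn5 read 135, 215, 208 and 129 CPM. In both, Ctrl 2 was the highest library. Slfn5 shares 8.84% of its exon bases with a gene on the opposite strand, and the strand setting of the counting was not given. Trim30a, a restrainer of inflammasome and receptor signalling, read 115, 175, 170 and 131 CPM. Xaf1, a promoter of cell death, was the steadiest of this group at 31.5, 32.9, 36.7 and 31.7 CPM.

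**Figure D2:**
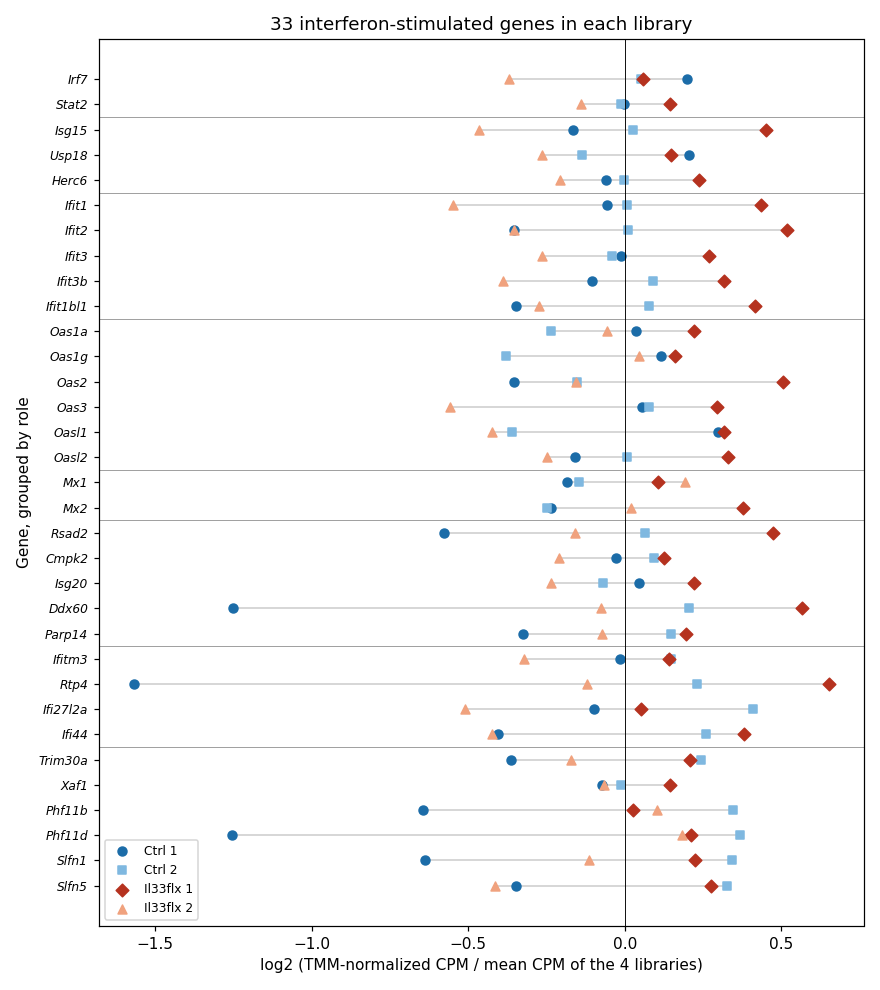
Each of the 33 genes in each of the 4 libraries, as log2 of the library's CPM over the mean of the 4 libraries, with horizontal rules between role groups. Il33flx 1 (diamonds) is the highest library for 23 genes and Il33flx 2 (triangles) the lowest for 18, while Ctrl 1 lies far to the left for Rtp4, Ddx60 and Phf11d.

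Among the 33 genes the median absolute gap on the log2 scale was 0.46 between the Il33flx libraries and 0.27 between the Ctrl libraries, and the median absolute fold change was 0.14. Over all genes tested the order was different, with 0.23 between the Il33flx libraries, 0.38 between the Ctrl libraries and 0.21 for the fold change. Counts of this kind were chosen after the values had been seen and are given as a description of 4 libraries, without a test.

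Il33flx 1 lay above Il33flx 2 for 31 of the 33 genes, where 50.8% of all genes tested did so. The exceptions were Mx1 and Phf11b. The median ratio was 1.38, with a range of 0.943 to 1.98, against a median of 1.003 over all genes, and 25 members were at least 25% higher, against 21.1% of all genes. Il33flx 1 was the highest of the 4 libraries for 23 members (21.4% of all genes) and Il33flx 2 the lowest for 18 (21.7%). Both Ctrl libraries lay between the Il33flx libraries for 13 members (10.8%), and the reverse held for 4 (24%). Between the Ctrl libraries, Ctrl 2 lay above Ctrl 1 for 24 members (48.8%), and for 9 of them by at least 1.5-fold (22.5%). Ctrl 1 was the lowest library for 12 members (36.1%) and the highest for 2 (34.2%). Il33flx 2 was the highest for 1 member, Mx1 (22%), and Il33flx 1 the lowest for 0 (21.6%).

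**Figure D3:**
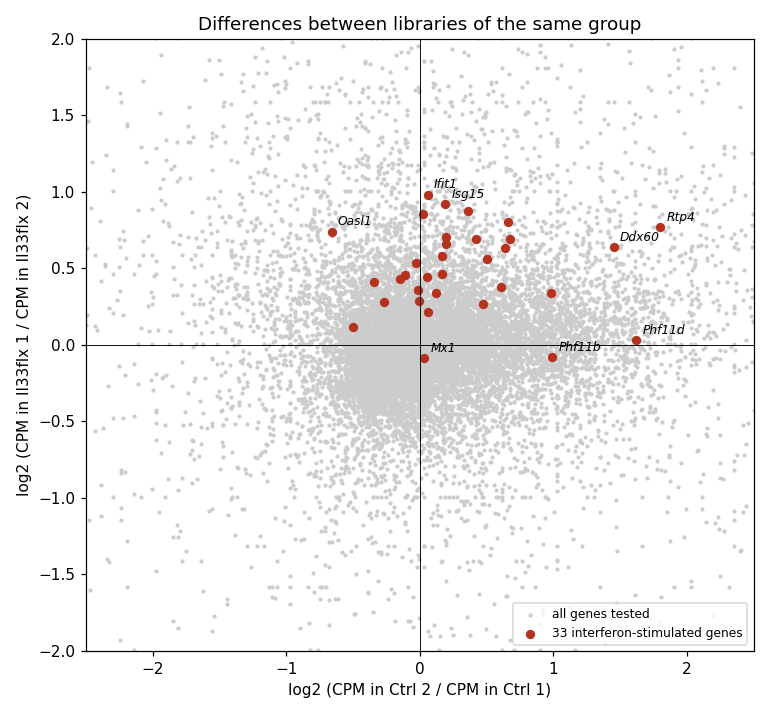
Log2 ratio of Ctrl 2 over Ctrl 1 (x axis) against log2 ratio of Il33flx 1 over Il33flx 2 (y axis) for the 33 genes (red) and for all genes tested with a value above 0 in each library (grey), with genes beyond the axis limits not drawn. Of the 33 genes, 31 lie above 0 on the y axis, and Rtp4, Phf11d and Ddx60 lie farthest right.

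Members with and without an ISRE core in the searched window shared this order. The 14 with the core had a median Il33flx 1 to Il33flx 2 ratio of 1.56, and 11 of them were highest in Il33flx 1. The 12 without it had a median of 1.37, with 8 highest in Il33flx 1. Median fold changes by genotype were 0.09 and 0.07 on the log2 scale.

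Interferon genes themselves were at or near 0 in the sorted cells. Of 21 ligand genes, 16 had 0 counts in all libraries and 0 passed the filter. Ifnb1, the beta interferon gene, had 0 counts in each library, which allows up to 0.0369 to 0.0443 CPM of the unscaled library total by counting error. Ifng, the gene of the type II interferon, had 6, 7, 26 and 8 counts, the highest in the library where most of the 33 genes were highest. Its part in their levels was not tested.

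The receptor and its signalling chain were well expressed. Ifnar1 read 186 and 175 CPM in the Ctrl pair and 181 and 179 CPM in the Il33flx pair (log2 fold change -0.01 ± 0.16 SE, adjusted p = 0.9999, edgeR), and Ifnar2 read 129, 145, 139 and 143 CPM (0.04 ± 0.17 SE, adjusted p = 0.998, edgeR). Irf9, the DNA-binding subunit, read 152, 193, 190 and 149 CPM, for a log2 fold change of -0.03 ± 0.21 (SE, adjusted p = 0.9999, edgeR). Of 12 receptor and signalling genes 0 were called in edgeR, and their groups lay apart for 1 higher and 3 lower (15.4% and 14.9% of all genes). The median over this list in each library, relative to the mean of 4 libraries, ranged only from -0.05 to 0.04, against -0.21 to 0.24 for the 33 genes.

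Genes that sense nucleic acids and induce interferon were not called either. Of 20 tested, 0 were called in edgeR, 5 had positive fold changes (51.8% of all genes) and 15 negative ones with a median of -0.13 over the list, and groups lay apart for 8 lower and 1 higher (14.9% and 15.4% of all genes). Among the 8 type 1 DC markers, which share Irf8 and Tlr3 with this list, 6 were negative with a median of -0.26, and 3 lay apart lower. Their summed level was 8067 to 9256 CPM in Ctrl and 7102 to 7612 CPM in Il33flx, and the part of this difference in the sensing genes was not tested. Irf3, the constitutive activator of the interferon genes, read 69.3 and 55.6 CPM in the Ctrl pair and 56.6 and 64.3 CPM in the Il33flx pair, with no order by group (log2 fold change -0.05 ± 0.20 SE, adjusted p = 0.998, edgeR). Of 13 tested genes that restrain interferon signalling, 0 were called and the median was -0.08.

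Further interferon-stimulated genes, 72 of 74 tested, had list medians in the same order of libraries as the 33. None was called in edgeR, 37 were positive and 35 negative with a median fold change of 0.01, and 61 lay higher in Il33flx 1 than in Il33flx 2. Ifitm1, a relative of Ifitm3, was the 1 gene among these 72 with an unadjusted p under 0.05, against 3.26% of all genes. It read 6.62 and 10.6 CPM in the Ctrl pair and 16.0 and 12.9 CPM in the Il33flx pair (log2 fold change 0.75 ± 0.30 SE, unadjusted p = 0.0453 and adjusted p = 0.995, edgeR). With no filter its unadjusted p was 0.0518 (adjusted p = 0.905, edgeR), while it was 0.0317 in DESeq2 and 0.0382 in limma-voom. The fold change was 0.46 without Ctrl 1, 1.12 without Ctrl 2, 0.59 without Il33flx 1 and 0.93 without Il33flx 2.

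GTPases best known as targets of interferon gamma, the GBP and IRG families, had the largest median ratio of Il33flx 1 to Il33flx 2 among the other pathway lists tested. All 18 tested of 20 listed were higher in Il33flx 1 than in Il33flx 2, by a median of 1.48-fold, and 14 were highest in Il33flx 1. Gbp2b, a guanylate-binding protein gene in a cluster of close relatives, so that its count is uncertain, read 5.50 and 6.74 CPM in the Ctrl pair and 14.99 and 10.04 CPM in the Il33flx pair. Its groups did not overlap, with Il33flx higher, as for 15.4% of all genes (log2 fold change 1.03 ± 0.30 SE, unadjusted p = 0.0120 and adjusted p = 0.995, edgeR). Its p was the smallest of the 161 other pathway genes found, of which 135 were tested and 0 called. Below an unadjusted p of 0.05 in edgeR stood 2 of the 135, against 3.26% of all genes. For Gbp2b the fold change was 0.71 without Il33flx 1, 0.90 without Ctrl 1, 1.18 without Ctrl 2 and 1.32 without Il33flx 2. Its unadjusted p in DESeq2 was 0.0025 (adjusted p = 0.352).

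**Figure D4:**
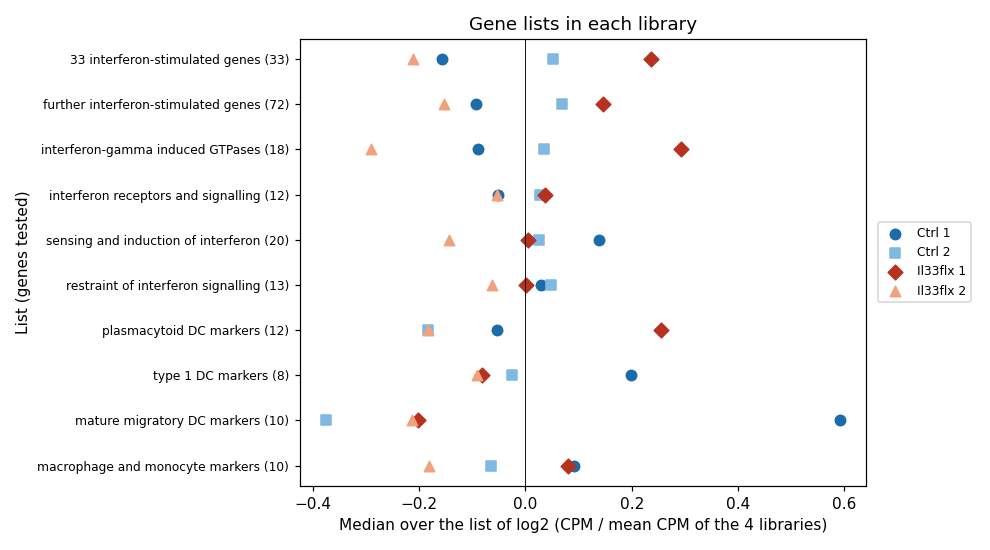
Median over each gene list of log2 (CPM over the mean of the 4 libraries) in each library, with the number of genes tested in parentheses. The 33 genes, the further interferon-stimulated genes, the GTPases and the plasmacytoid DC markers are highest in Il33flx 1. The interferon receptors and signalling list is also highest there, narrowly (0.037, against 0.027 in Ctrl 2). The mature migratory DC markers are highest in Ctrl 1.

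Marker lists of other cell types did not share 1 order of all 4 libraries, but most were higher in Il33flx 1 than in Il33flx 2. This held for all 10 macrophage and monocyte, 8 B cell, 7 erythroid and 8 neutrophil markers, where 50.8% of all genes did so. It also held for 8 of 9 T cell and EL4 markers and 8 of 10 mature migratory DC markers. The counts were 4 of 8 for type 1 DCs, 4 of 6 for type 2 DCs and 1 of 6 for NK cells. In bulk samples, fewer cells of a type and less RNA per cell cannot be told apart. Plasmacytoid DCs are known as strong producers of type I interferon, and 11 of their 12 markers were higher in Il33flx 1 than in Il33flx 2, with 9 highest in Il33flx 1 and none at 0. Their summed level was 262 and 248 CPM in the Ctrl pair and 346 and 227 CPM in the Il33flx pair. Ctrl 2 lay above Ctrl 1 for only 4 of the 12, against 48.8% of all genes. Siglech, a defining surface lectin and 1 of those 4, read 16.3, 18.3, 29.8 and 17.2 CPM. The 8 B cell markers summed to 49.7 to 49.9 CPM in Ctrl and 84.8 to 105 CPM in Il33flx, and the 7 erythroid markers to 4.51 to 5.003 CPM and 12.6 to 28.4 CPM. All 8 and all 7 of these were highest in Il33flx 1, and the erythroid genes Slc4a1 and Klf1 were at 0 in Ctrl 1. The 8 neutrophil markers summed to 266 to 292 CPM in Ctrl and 373 to 537 CPM in Il33flx, with 7 of 8 highest in Il33flx 1. The 9 markers of T cells and of EL4, the tumour line, summed to 133 to 187 CPM in Ctrl and 109 to 147 CPM in Il33flx, with 7 highest in Ctrl 1 and 8 lowest in Il33flx 2. The 6 NK cell markers summed to 84.4 to 156 CPM in Ctrl and 122 to 153 CPM in Il33flx, with 0 highest in Il33flx 1. The part of these cells in the levels of the 33 genes was not tested.

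Ctrl 1 stood apart by other markers. The 10 markers of mature migratory DCs summed to 2570 and 1268 CPM in the Ctrl pair and 1389 and 1282 CPM in the Il33flx pair. Of these, 9 were highest in Ctrl 1. Of the 8 type 1 DC markers, 5 were highest in Ctrl 1 and 2, Xcr1 and Clec9a, were lowest there. Rtp4, Ddx60 and Phf11d had their lowest values in the same library, and the part of this difference in their values was not tested.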

How the data were processed

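Libraries of poly(A) RNA were sequenced, 2 of Ctrl and 2 of Il33flx. The main values were the authors' deposited gene counts, whole-number read counts that were not normalized. The tools named in the submitters' processing notes are Trimmomatic 0.39, STAR, HTSeq and DESeq2, and the build is GRCm38. Other versions, the annotation release and the strand setting are not given in the sources used here, so reads of overlapping genes on opposite strands cannot be told apart. HTSeq's summary rows name no gene and were left out. Reads with several alignments made up 21.9% to 23.1% of each library, reads outside features 3.22% to 4.93% and ambiguous reads 2.62% to 2.74%, which lowers near-identical genes. The authors' deposited comparison gave log2 fold changes with standard errors, a Wald score, p-values and signal columns (counts over size factors), and it was used only where named. Its Wald score and signal columns were not used.

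Genes were named from that table and otherwise from GENCODE M21, which gave coordinates and exon lengths. Il33flx was compared with Ctrl by edgeR 4.0.16 (R 4.3.3, quasi-likelihood F test, filterByExpr, TMM, no covariate), fitted over all 14995 genes that passed and adjusted by Benjamini-Hochberg over all of them, with calls below 0.05. Each standard error is the fold change on the log2 scale over the root of F, and the biological coefficient of variation was 28.6%. CPM are TMM-normalized. The exception is the worth of a count of 3, 0.0369 to 0.0443 CPM, which was taken on library totals without TMM and covers counting error only. A permutation test of 2 against 2 libraries has a smallest two-sided p of 0.333 and was not run. The procedure was tested on simulated data. Alternatives were DESeq2 1.42.0, limma-voom (limma 3.58.1), other scalings and filters, a replicate block and leaving out each library.

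The 33 genes and the other lists were chosen with earlier results of these data known. Fold changes were printed for the member with the smallest p and the member with the highest level per kilobase in each role group, for pathway genes always given (Ifnar1, Ifnar2, Irf9 and Irf3, and as counts alone Ifnb1 and Ifng, which did not pass the filter), and for pathway genes with an unadjusted p under 0.05. A gene that the rule also took is not reported here. Isg15, Oas3, Mx2, Ddx60 and Rtp4, and the promoters of Isg15 and Oas1g, were added after their values had been seen. Promoters came from RefSeq (GRCm38.p6), and 7 members (Usp18, Oas2, Mx1, Mx2, Parp14, Rtp4 and Ifi27l2a) were not analysed there. Mnda, Pydc3 and Pydc4 of the pathway lists were not analysed here.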

Additional observations from a re-analysis of the deposited data

How the results depend on the processing

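Calls among the 33 genes and among the other pathway genes were 0 in every fit of all 4 libraries. In edgeR these used DESeq2's size factors, library size alone, no filter or 1 CPM in 2 libraries. The others were DESeq2, limma-voom and the replicate block. The smallest adjusted p of a member over the fits of all 4 libraries was 0.905 (edgeR, no filter). Further fits left out 1 library at a time. Leaving a library out leaves 1 sample in its group, assumed to vary like the other group. The count of all genes called was 1 in edgeR, 0 with library size alone, 0 with no filter, 0 with limma-voom, 53 with DESeq2, and 0 to 36 without 1 library. With the replicate number as a block it was 33, but the labels do not say whether the numbers pair the libraries. The correlation of their deviations was r = -0.03 across 14995 genes, which cannot settle this with 2 libraries a group. The members' median log2 fold change ranged from -0.18 to 0.32 without 1 library, lowest without Il33flx 1 and highest without Il33flx 2, and was 0.22 without Ctrl 2. Of the 33 genes, 24 changed sign in a fit without 1 library and 6 in another fit of all 4. The 9 that kept their sign in every fit were Ddx60, Ifi27l2a, Irf7, Mx1, Mx2, Oas1a, Oas2, Rsad2 and Rtp4. With library size alone the median over all genes was 0.09, and Ifnar1, Irf9 and Irf3 turned to 0.0709, 0.0505 and 0.0345. Ifnar1 was also 0.0038 with the filter of 1 CPM. Without 1 library, log2 fold changes ranged from -0.31 to 0.13 for Usp18, -0.40 to 0.55 for Isg15, -0.19 to 0.71 for Ifit2, -0.63 to 0.26 for Oas3, -0.23 to 0.26 for Isg20, -0.39 to 0.10 for Ifitm3, -0.27 to 0.70 for Phf11b and -0.17 to 1.44 for Phf11d. They ranged from -0.0593 to 0.0452 for Ifnar1, -0.0339 to 0.12 for Ifnar2, -0.21 to 0.16 for Irf9 and -0.20 to 0.13 for Irf3. The cause of these changes was not tested. For 9 of the 33 genes the interval with 2 libraries a group includes a 2-fold difference.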

Other observations

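Some interferon-induced genes outside the 33 spanned a wider range between the Ctrl libraries than any of the 33. Samd9l, an antiviral translation inhibitor gene, read 67.8 and 384 CPM in the Ctrl pair and 268 and 167 CPM in the Il33flx pair. Ifi209, of the cluster of cytosolic DNA sensors on chromosome 1, read 51.4, 211, 169 and 108 CPM, and its neighbour Ifi205 read 114, 454, 341 and 402 CPM. In all 3 genes Ctrl 1 was the lowest and Ctrl 2 the highest library. These genes were picked after their values had been seen, and close relatives in the same clusters make the counts of Ifi205 and Ifi209 uncertain.

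Kinases and factors around the pathway gave groups that lay apart with Il33flx lower, as 14.9% of all genes did, without a call. Tyk2, the receptor's kinase, read 604 and 447 CPM in the Ctrl pair and 413 and 404 CPM in the Il33flx pair, and Jak2 read 68.9, 91.8, 53.7 and 65.7 CPM. Myd88, the adaptor of Toll-like receptors, read 257, 217, 189 and 167 CPM, for a log2 fold change of -0.41 ± 0.18 SE (unadjusted p = 0.0626 and adjusted p = 0.995, edgeR). Irf5 and Irf8 also lay apart lower. These genes too were picked after their values had been seen. Trex1, the exonuclease that removes cytosolic DNA, had 0 counts in each library, and 100% of its annotated exon bases overlap Atrip on the same strand.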
